A study of Mus musculus with 4 samples.

Results

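Glycolysis and hypoxia genes were described as 41 mouse gene symbols picked by name: the glucose transporters and glycolytic enzymes, the genes that handle pyruvate and lactate, the subunits and oxygen sensors of the hypoxia-inducible factors (HIF), and well-known HIF targets. They matched 42 of the 54532 gene identifiers in the count tables, because the symbol Aldoa belongs to 2 identifiers, and all 42 passed the filter on low counts. RNA sequencing counts came from 2 irradiated and 2 unirradiated libraries, named A and B in each group, of cells labelled as primary fibroblasts of mouse breast cancer (cancer-associated fibroblasts). Both groups came from C57BL/6 mice with MMTV-PyMT tumours, in which a mammary promoter drives a viral oncogene, and both carry the labels Dll1 mCherry+ and day 6. The irradiated group received 6 Gy and the unirradiated group no radiation. A PDGFRa antibody was applied to the digested tumours, and the labels give neither the age of the mice, nor which fraction of the digest was sequenced, nor the time between radiation and collection.

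Glycolysis turns glucose into pyruvate in the cytosol, and cells then either burn pyruvate in mitochondria or reduce it to lactate and export it. HIF proteins are transcription factors whose alpha subunits are hydroxylated and degraded when oxygen is present, and which bind short hypoxia response elements beside many glycolytic genes when it is scarce. In tumours, fibroblasts are a known source of lactate for neighbouring carcinoma cells, and both irradiation and hypoxia are known to change HIF activity.

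Total counts lay between 15817969 and 23763830 in the irradiated libraries and between 13011489 and 17569515 in the unirradiated ones, so that 1 count was worth 0.0403 to 0.0809 CPM (counts scaled for library size). Marker genes of other cells were present in all 4 libraries. Markers are counted as higher or lower by the edgeR test given below, which called 33.9% of all tested genes higher and 32.5% lower. The 15 fibroblast markers summed to 2112 and 2120.1 CPM in irradiated libraries and 693 and 662 CPM in unirradiated ones, with 12 higher and 1 lower. The 19 epithelial and tumour markers summed to 12226 and 12710.4 CPM in irradiated libraries and 15535 and 15632 CPM in unirradiated ones. Of these, 7 were higher (36.8%) and 8 lower (42.1%), not far from the shares of all tested genes. The epithelial sum was thus above the fibroblast sum in every library. Its fall leans on the milk gene Csn3, at 3130.2 and 3275 CPM in irradiated libraries and 5756 and 5825 CPM in unirradiated ones. The casein Csn2 rose, from 0.537 and 0.809 CPM in unirradiated libraries to 138 and 141 CPM in irradiated ones. The 12 macrophage and monocyte markers summed to 827 and 825 CPM in irradiated libraries and 329 and 328 CPM in unirradiated ones, with 11 higher, and the 10 endothelial markers to 205 and 194 CPM in irradiated libraries and 90.3 and 93 CPM in unirradiated ones, with 9 higher. The 7 pericyte and smooth muscle markers summed to 308 and 296 CPM in irradiated libraries and 147 and 134 CPM in unirradiated ones, with 5 higher. That rise leans on Acta2 (108 and 103 CPM in irradiated libraries, 24.3 and 24.4 CPM in unirradiated ones) and Notch3 (118 and 111, against 65.5 and 60). Kcnj8 and Abcc9 were not called. Neutrophil, T and NK, adipocyte, skeletal muscle and erythroid markers each summed to at most 69.6 CPM in any library, with lower sums in irradiated than in unirradiated ones. The NK markers were near 0 throughout and were not tested. Klrb1c had 0 counts in both irradiated libraries and 1 and 2 in unirradiated A and B. Ncr1 had 0 and 3 counts in irradiated A and B and 1 and 0 in unirradiated A and B. The part that these shifts play in the values below was not tested. In such bulk samples, fewer cells of a type and less RNA per cell cannot be told apart. Nothing states that A and B were separate animals, so each p-value reflects the spread among the libraries alone, and that spread could be technical. The fit took that spread largely from all tested genes together (59.8 prior against 2 residual degrees of freedom). A standard error or p-value is therefore not a measure of a gene's own replicate spread.

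Irradiated libraries had more RNA for glucose import, for the PFKFB3 activator of glycolysis, for most monocarboxylate transporters measured and for the HIF subunits. They had less RNA for most enzymes of the glycolytic chain itself. Of the 42 gene identifiers, 16 were higher and 17 lower in irradiated libraries at an adjusted p under 0.05 (quasi-likelihood F-test of edgeR, Benjamini-Hochberg over all 15961 tested genes, as for every adjusted p given), and 9 did not pass. This was 38.1% higher and 40.5% lower, against 33.9% and 32.5% of all tested genes, of which 66.4% were called in either direction, so the shares lay near the background. The median log2 fold change, irradiated over unirradiated, was -0.06 for the glycolysis and hypoxia genes and 0 for all tested genes, and the median absolute change was 0.361 against 0.455. Their median level was 109 CPM, against 19.7 CPM for all tested genes. In 38 of the 42 the groups did not overlap, as in 82.5% of all tested genes. Tested against a change of 1.5-fold, 8 were higher (Slc2a3, Eno2, Pfkfb3, Pfkfb4, Slc16a1, Pdk3, Pdk4 and Epas1) and 3 lower (Hk2, Eno1 and Ankrd37), where 12.7% of all tested genes were higher and 11% lower.

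**Figure D1:**
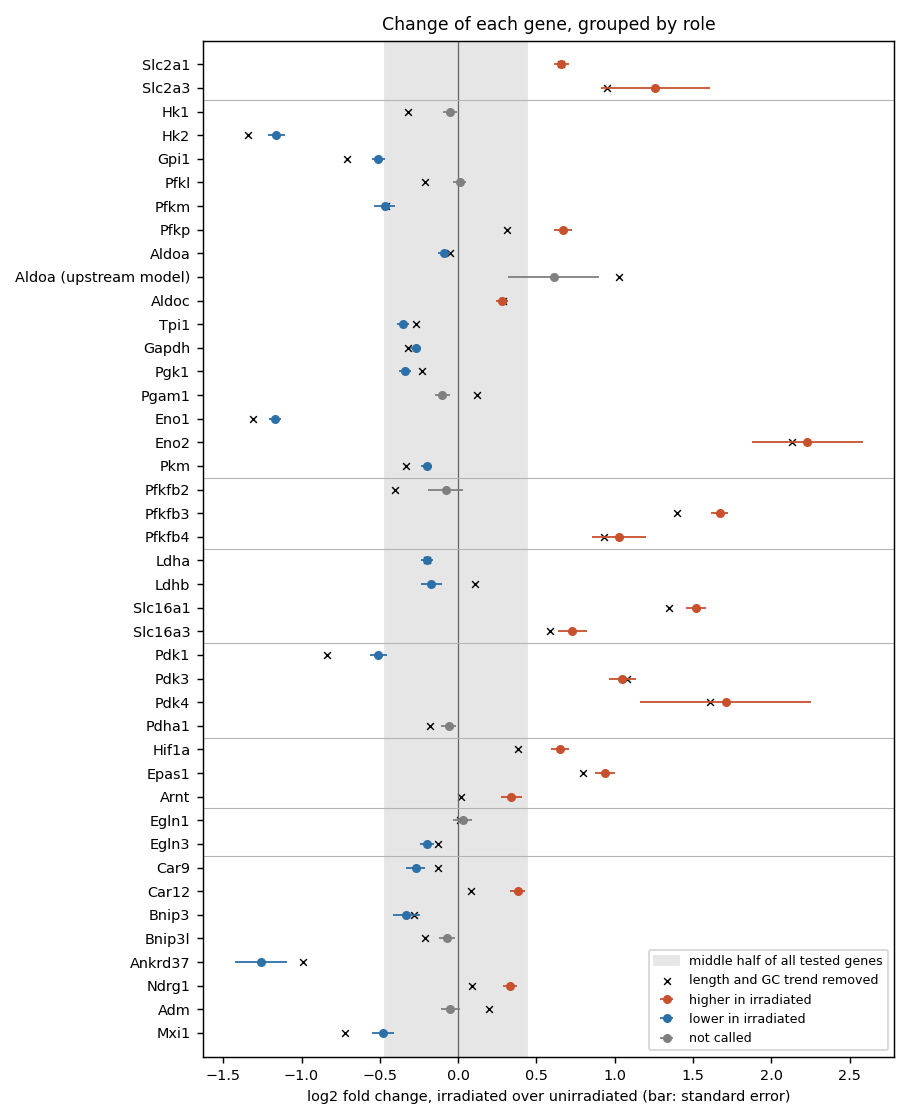
Log2 fold change of each gene, irradiated over unirradiated, grouped by role, with bars for the standard error, the quartile range of all tested genes shaded (-0.47 to 0.44), and crosses for values after the trend with gene length and GC percent was taken out. Pfkfb3 (1.67) and Slc16a1 (1.52) stand to the right, and Hk2 (-1.16) and Eno1 (-1.17) to the left of the glycolytic enzymes.

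Promoter sequence is shown for 5 genes that passed the 1.5-fold test in opposite directions, to set their hypoxia response cores side by side. All 3 genes lower in that test are shown, but only Slc16a1 and Pdk3 of the 8 that were higher. The choice among the higher genes followed no stated rule. Bases before the RefSeq start on GRCm38.p6 are printed 5′ to 3′ on the gene's strand, without bases that GENCODE M21 places in an exon of that gene, and capitals mark each ACGTG or GCGTG on either strand. Where CACGTG or CACGCGTG occurs, it holds the core on both strands and counts as a pair of overlapping matches. Slc16a1 is at chr3:104638414-104638663 (plus strand), Pdk3 at chrX:93832202-93832400 (minus), Hk2 at chr6:82774455-82774704 (minus), Eno1 at chr4:150236458-150236707 (plus) and Ankrd37 at chr8:45999868-46000100 (minus). Slc16a1 and Pdk3 rose, and Hk2, Eno1 and Ankrd37 fell.
Slc16a1: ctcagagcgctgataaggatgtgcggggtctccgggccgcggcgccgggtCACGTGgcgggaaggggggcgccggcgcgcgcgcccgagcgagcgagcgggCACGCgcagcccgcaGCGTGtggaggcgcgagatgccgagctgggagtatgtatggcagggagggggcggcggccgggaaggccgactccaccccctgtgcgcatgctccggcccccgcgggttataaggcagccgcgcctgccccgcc
Pdk3: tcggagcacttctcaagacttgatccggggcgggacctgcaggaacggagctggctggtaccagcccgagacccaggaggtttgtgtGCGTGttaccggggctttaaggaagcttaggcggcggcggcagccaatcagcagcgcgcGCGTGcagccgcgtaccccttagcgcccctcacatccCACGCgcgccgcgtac
Hk2: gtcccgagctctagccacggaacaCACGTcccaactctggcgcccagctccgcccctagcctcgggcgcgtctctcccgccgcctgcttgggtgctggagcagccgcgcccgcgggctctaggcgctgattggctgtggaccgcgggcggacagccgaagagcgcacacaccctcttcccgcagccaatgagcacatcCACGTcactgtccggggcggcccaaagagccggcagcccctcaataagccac
Eno1: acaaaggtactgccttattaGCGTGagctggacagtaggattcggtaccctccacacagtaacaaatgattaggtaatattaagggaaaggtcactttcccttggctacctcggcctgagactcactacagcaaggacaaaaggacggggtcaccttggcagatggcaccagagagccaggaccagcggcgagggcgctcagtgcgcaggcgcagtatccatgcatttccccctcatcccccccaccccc
Ankrd37: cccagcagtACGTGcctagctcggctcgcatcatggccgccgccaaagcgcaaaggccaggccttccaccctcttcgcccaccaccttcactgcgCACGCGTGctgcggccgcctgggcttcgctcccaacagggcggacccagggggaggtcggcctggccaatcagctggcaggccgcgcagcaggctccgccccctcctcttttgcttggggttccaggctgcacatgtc
The printed stretches hold 4 matches for Slc16a1, 3 for Pdk3, 2 for Hk2, 1 for Eno1 and 3 for Ankrd37. RefSeq lists 3 windows for Eno1, of which the first is printed. The other windows overlap each other and hold the same 2 matches before the start. In the whole RefSeq windows described below, Slc16a1 had 5 matches and Pdk3 had 4, against 2 for Hk2 and 4 for Ankrd37. Among the higher genes not printed, Pfkfb3 had 1 and 4 in its windows, Pfkfb4 and Pdk4 had 1 each and Eno2 had 0. Slc2a3 and Epas1 had no window. The printed stretches therefore cannot show whether genes that rose hold more cores than genes that fell.

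RefSeq windows of 300 bases, from 250 before to 50 after the start, were found for 37 of the 41 symbols. Slc2a3, Epas1, Bnip3l and Ndrg1 are named only. At least 1 match lay in 33 of the 37 symbols with a window (89.2%), and in 44 of their 54 windows (81.5%), against 43.8% of all 32851 windows. ACGTG alone was in 51.9% of their windows, against 19.6% of all, and GCGTG in 55.6%, against 32.4% of all. By direction, 11 of 13 symbols higher in irradiated libraries had a match, as did 15 of 17 that were lower and 7 of 7 that were not called. Matches were found among genes of each direction. A match is only these letters in a window, not a bound site. The genes were picked partly as known HIF targets, so their excess over all windows is not independent of that choice. Both cores contain CG, and windows of like CG content were not compared.

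**Figure D2:**
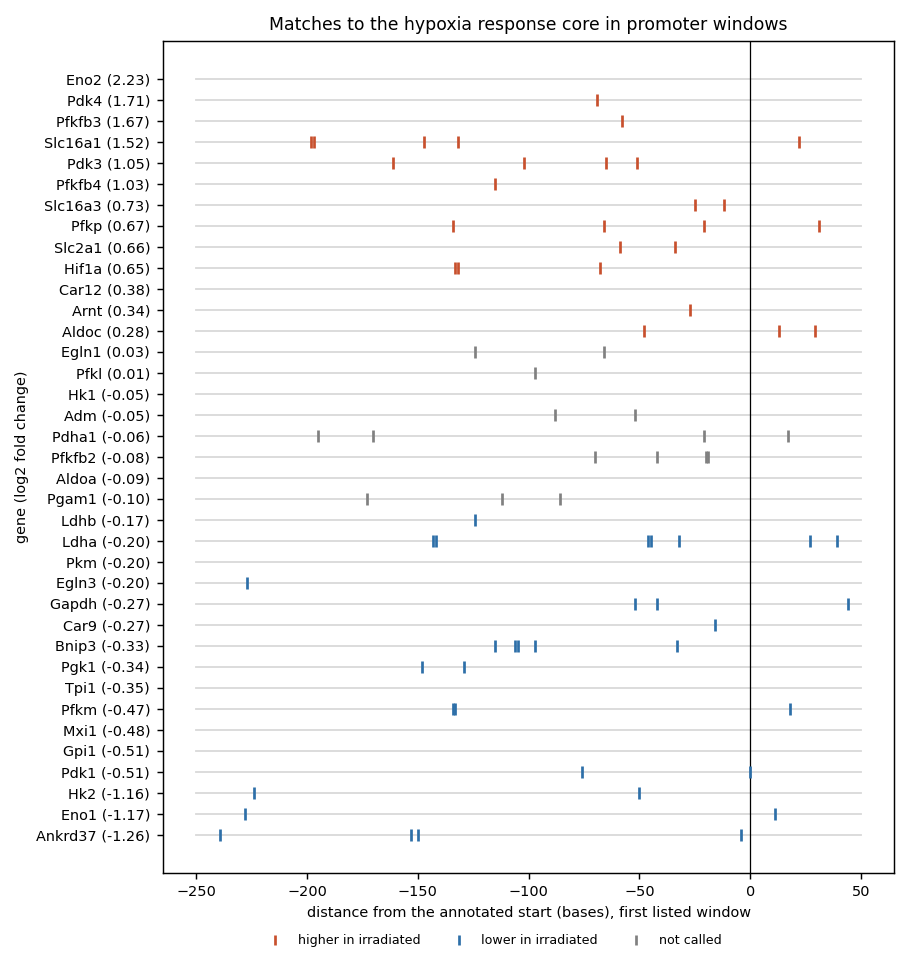
Position of each ACGTG or GCGTG match, either strand, in bases from the RefSeq start of the first listed window, for the 37 symbols with a window, ordered by log2 fold change. Matches stand in windows of genes that were higher, lower and not called in irradiated libraries.

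Glucose enters these cells through facilitative transporters, and Slc2a1 and Slc2a3 were both higher in irradiated libraries. Slc2a1 (chromosome 4, 119108711 to 119137983), encoding the basal transporter GLUT1, had 329.6 and 343 CPM in irradiated A and B, against 208 and 218 CPM in unirradiated A and B. Both irradiated libraries lay above both unirradiated ones, and the log2 fold change was 0.66 (SE 0.0455, adjusted p = 2.74e-20 from the edgeR fit). Slc2a3, encoding GLUT3, had 2.47 and 3.03 CPM in irradiated libraries and 1.49 and 0.728 CPM in unirradiated ones, again without overlap (log2 fold change 1.26, SE 0.35, edgeR adjusted p = 0.00135). It rests on few counts, and the log2 fold change was 1.93 without unirradiated A and 0.91 without unirradiated B. Per kilobase of gene length, Slc2a1 had 94 and 97.8 CPM in irradiated libraries and 59.3 and 62.3 CPM in unirradiated ones. On the same scale Slc2a10 had 4.53 and 3.58 in irradiated libraries and 1.72 and 1.79 in unirradiated ones, and Slc2a8 had 3.71 and 4.1 in irradiated libraries and 4.37 and 4.24 in unirradiated ones, so Slc2a1 was far above both in every library. Of 5 other tested glucose transporters, 3 were higher (60%, against 33.9% of all tested genes). These were Slc2a10 (1.18), Slc2a9 (0.68) and Slc2a6 (0.61) on the log2 scale, and Slc2a4 (0) and Slc2a8 (-0.13) were not called.

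The glycolytic enzymes as a list moved the other way. Of 16 identifiers, 9 were lower (56.2%, against 32.5% of all tested genes) and 3 higher (18.8%, against 33.9%). The other 4 were not called, and the median log2 fold change was -0.15. Of the 9 that were lower, only Hk2 and Eno1 passed the test against 1.5-fold. Their summed level was 2068 and 2136 CPM per kilobase in irradiated libraries, below the 2556 and 2557 CPM per kilobase in unirradiated ones. That fall leans in part on Eno1, at 135 and 142 CPM per kilobase in irradiated libraries and 308 and 313 in unirradiated ones. Per kilobase, Gapdh, Aldoa, Ldha and Pkm ranked 96, 112, 127 and 148 among all 15961 tested genes. These abundant genes have many retrocopies and pseudogenes, and Eno1 has the near-identical Eno1b, so their counts are uncertain where reads could be split between copies.

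Hexokinase, the entry enzyme, traps glucose as its phosphate. Hk2, its inducible form (chromosome 6, 82725025 to 82774454), had 68.9 and 67 CPM in irradiated libraries and 151 and 152 CPM in unirradiated ones. The irradiated values were all lower, and the log2 fold change was -1.16 (SE 0.0558, edgeR adjusted p = 6.54e-28). Hk1, the constitutive form, had 297 and 289 CPM in irradiated libraries and 301 and 306 CPM in unirradiated ones and did not pass (log2 fold change -0.05, edgeR adjusted p = 0.304; -0.32 and called with the length and GC trend removed). As a share of the summed level per kilobase of Hk1, Hk2 and Hk3, Hk2 was 24.4% and 24.3% in irradiated libraries, against 41.5% and 41.3% in unirradiated ones, and Hk1 was 73.8% and 73.4%, against 57.9% and 58.1%. The Hk2 to Hk1 log2 ratio per kilobase was -1.59 in irradiated libraries and -0.49 in unirradiated ones. Hk3, a minor hexokinase, was higher (3.13 and 3.99 CPM in irradiated libraries, 1.31 and 1.21 CPM in unirradiated ones; log2 fold change 1.51).

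Downstream, Gpi1, which turns glucose 6-phosphate into fructose 6-phosphate, had 384 and 381 CPM in irradiated libraries and 542 and 545 CPM in unirradiated ones (log2 fold change -0.51, SE 0.0407, edgeR adjusted p = 2.21e-17). A stretch of 11.5% of its exon bases is shared with another gene, Gm26762, and reads there cannot be told apart. The next enzyme, phosphofructokinase, is a main control point built from liver, muscle and platelet subunits. Pfkl, the liver subunit, had 608 and 639.8 CPM in irradiated libraries and 625 and 618 CPM in unirradiated ones, which overlap (log2 fold change 0.01, edgeR adjusted p = 0.9; -0.21 with the length and GC trend removed). Pfkm, the muscle subunit, fell to 45.6 and 47.1 CPM in irradiated libraries, against 65.3 and 63.4 CPM in unirradiated ones (log2 fold change -0.47, SE 0.0687). Pfkp, the platelet subunit, rose to 141 and 137 CPM in irradiated libraries, against 88.7 and 85.8 CPM in unirradiated ones (log2 fold change 0.67, SE 0.0554). Pfkm and Pfkp moved in opposite directions, and the summed level of the 3 subunits was 115 and 120.2 CPM per kilobase in irradiated libraries and 119.8 and 118 CPM per kilobase in unirradiated ones. Pfkp made up 9.15% and 8.51% of it in irradiated libraries, against 5.53% and 5.43% in unirradiated ones.

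Aldolase splits the sugar into triose phosphates. Aldoa had 1049.6 and 1093 CPM in irradiated libraries and 1153 and 1132 CPM in unirradiated ones, a small fall (log2 fold change -0.09, SE 0.0369, edgeR adjusted p = 0.0232) that was not called without irradiated A (-0.05), without unirradiated A (-0.08) or without unirradiated B (-0.10), nor with the length and GC trend removed (-0.05). The smaller second identifier named Aldoa, an upstream gene model (ENSMUSG00000114515) had 3.31 and 2.95 CPM in irradiated libraries and 2.15 and 1.86 CPM in unirradiated ones and did not pass (log2 fold change 0.61, edgeR adjusted p = 0.0618), but was called with the length and GC trend removed (1.03, adjusted p = 0.00185). Aldoc, the brain-type aldolase, rose to 529 and 545 CPM in irradiated libraries, against 439.7 and 447 CPM in unirradiated ones (log2 fold change 0.28, SE 0.0406). Aldolase summed to 523 and 543 CPM per kilobase in irradiated libraries and 531 and 526 CPM per kilobase in unirradiated ones, with Aldoc at 31% and 30.8% in irradiated libraries and 25.4% and 26% in unirradiated ones.

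Most enzymes of the steps after aldolase were lower in irradiated libraries. Tpi1, the triose phosphate isomerase, had 564 and 600.4 CPM in irradiated libraries and 739 and 741 CPM in unirradiated ones (log2 fold change -0.35, SE 0.0396). Gapdh had 1619 and 1649.7 CPM in irradiated libraries and 1959 and 1972 CPM in unirradiated ones (-0.27, SE 0.0348), and Pgk1, the first ATP-making enzyme, had 514 and 533 CPM in irradiated libraries and 658 and 664 CPM in unirradiated ones (-0.34, SE 0.0396). Pgam1 fell short of the threshold (146 and 148 CPM in irradiated libraries, 159 and 157 CPM in unirradiated ones, log2 fold change -0.10, edgeR adjusted p = 0.0605). Its call moved with the processing: it was lower with upper-quartile scaling (-0.15, adjusted p = 0.00904) and with a stricter filter (-0.12, adjusted p = 0.0257), and higher with the length and GC trend removed (0.12, adjusted p = 0.0162). Eno1, the ubiquitous enolase (chromosome 4, 150236721 to 150248879) had 724 and 764 CPM in irradiated libraries and 1658 and 1684 CPM in unirradiated ones, with no overlap (log2 fold change -1.17, SE 0.0373, edgeR adjusted p = 1.79e-37). The enolase isozymes summed to 138 and 146 CPM per kilobase in irradiated libraries, against 313 and 318 CPM per kilobase in unirradiated ones. Eno2, the neuronal enolase, had 4.03 and 3.51 CPM in irradiated libraries and 0.716 and 0.89 CPM in unirradiated ones (log2 fold change 2.23, SE 0.356, edgeR adjusted p = 1.65e-07). Eno1 nonetheless made up 97.4% and 97.6% of the enolase level per kilobase in irradiated libraries and 98.5% and 98.4% in unirradiated ones. Pkm, pyruvate kinase, had 1394 and 1434 CPM in irradiated libraries and 1633 and 1616 CPM in unirradiated ones (log2 fold change -0.20, SE 0.0355), with 15.3% of its exon bases shared with Gm49759.

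**Figure D3:**
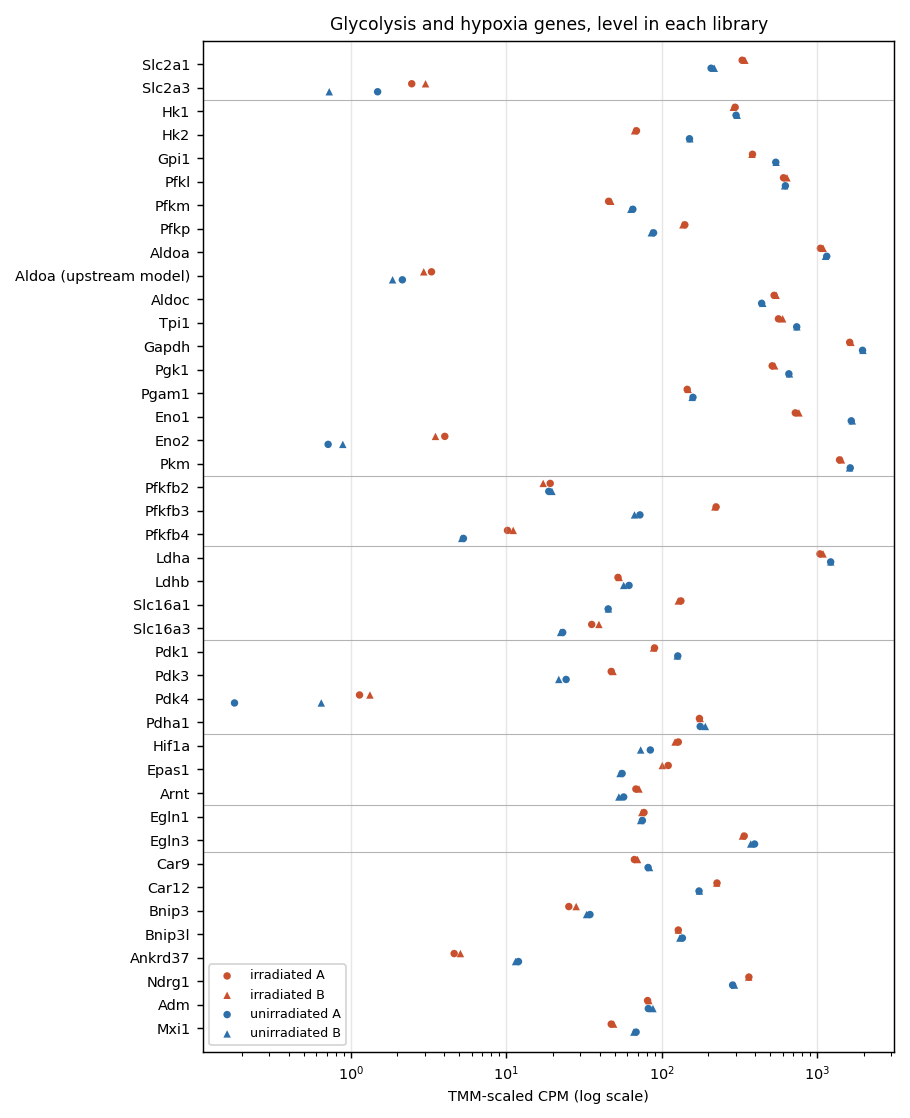
TMM-scaled CPM of each gene in each library on a log axis, irradiated in red and unirradiated in blue, circles for A and triangles for B. Eno1 stands at 724 and 764 CPM in irradiated libraries and at 1658 and 1684 CPM in unirradiated ones, while Pfkl overlaps.

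The PFKFB enzymes make and break fructose 2,6-bisphosphate, the strongest activator of phosphofructokinase. Pfkfb3, the kinase-weighted form (chromosome 2, 11471433 to 11554077), had 224 and 219.9 CPM in irradiated libraries and 72.5 and 66.9 CPM in unirradiated ones. Both irradiated libraries were far above both unirradiated ones, with a log2 fold change of 1.67 (SE 0.0549, edgeR adjusted p = 8.38e-37), the largest rise among the glycolysis and hypoxia genes above 5 CPM. Pfkfb4, a related isozyme, had 10.2 and 11.1 CPM in irradiated libraries and 5.31 and 5.18 CPM in unirradiated ones (log2 fold change 1.03, SE 0.173, edgeR adjusted p = 4.94e-07). Pfkfb2, the heart form, did not pass (19.2 and 17.3 CPM in irradiated libraries, 18.8 and 19.7 CPM in unirradiated ones). It shares 19.5% of its exon bases with Yod1 and Gm29427. Pfkfb3 was 84.9% and 85.1% of the summed PFKFB level per kilobase in irradiated libraries and 69.5% and 68.2% in unirradiated ones.

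Lactate is made by lactate dehydrogenase and carried out by the monocarboxylate transporters. Slc16a1, encoding MCT1, which moves lactate either way (chromosome 3, 104638668 to 104658462), had 133 and 128 CPM in irradiated libraries and 45.3 and 45.5 CPM in unirradiated ones. The groups were far apart, and the log2 fold change was 1.52 (SE 0.0625, edgeR adjusted p = 1.67e-31). Slc16a3, encoding the export form MCT4, had 35.5 and 39.5 CPM in irradiated libraries and 23.1 and 22.4 CPM in unirradiated ones (log2 fold change 0.73, SE 0.0908, edgeR adjusted p = 2.24e-10). MCT1 was 77% and 75.9% of the summed level per kilobase of Slc16a1, Slc16a3, Slc16a7 and Slc16a8 in irradiated libraries, against 59.9% and 58.8% in unirradiated ones. Slc16a7 was also higher (log2 fold change 1.55). Slc16a8 was lower, with 2.71 and 2.18 CPM in irradiated libraries and 5.19 and 5.83 CPM in unirradiated ones (log2 fold change -1.19, SE 0.243). Its share was 3.05% and 2.51% in irradiated libraries, against 13.3% and 14.7% in unirradiated ones. The dehydrogenase subunits were lower in irradiated libraries, by little. Ldha, the muscle subunit, had 1043 and 1092 CPM in irradiated libraries and 1222 and 1224 CPM in unirradiated ones (log2 fold change -0.20, SE 0.0368), and Ldhb, the heart subunit, had 52.4 and 53.3 CPM in irradiated libraries and 61.7 and 57 CPM in unirradiated ones (-0.17, SE 0.0688, edgeR adjusted p = 0.026). The call of Ldhb was lost without irradiated A, irradiated B or unirradiated A, where the log2 fold change was -0.14, -0.17 and -0.10, and the value was 0.11 with the length and GC trend removed. The log2 Ldhb to Ldha ratio per kilobase was -3.26 in irradiated libraries and -3.29 in unirradiated ones, and its groups overlapped, the only overlap among 16 pairs of related genes compared.

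Pyruvate dehydrogenase converts pyruvate to acetyl-CoA inside mitochondria, and the PDK kinases switch it off. Pdk3 (chromosome X, 93764607 to 93832201) had 47.4 and 48.7 CPM in irradiated libraries and 24.3 and 21.8 CPM in unirradiated ones (log2 fold change 1.05, SE 0.0856, edgeR adjusted p = 4.25e-17). Pdk1, the classical HIF target, had 90 and 88.7 CPM in irradiated libraries and 127 and 126 CPM in unirradiated ones (-0.51, SE 0.0551, edgeR adjusted p = 2.68e-12), and Pdk2, the broadly expressed kinase, had 22.4 and 23.2 CPM in irradiated libraries and 58.8 and 58.1 CPM in unirradiated ones (-1.35, SE 0.0797). The summed kinase level per kilobase was 37.5 and 38.1 in irradiated libraries and 44.5 and 43.3 in unirradiated ones, and Pdk3 held 49.4% and 49.8% of it in irradiated libraries, against 21.4% and 19.7% in unirradiated ones. Pdk4, at 1.14 and 1.33 CPM in irradiated libraries and 0.179 and 0.647 CPM in unirradiated ones, passed (log2 fold change 1.71, SE 0.545, edgeR adjusted p = 0.0048) on 3 and 8 unirradiated counts. It did not pass without unirradiated A (0.95, adjusted p 0.219) or with DESeq2 (1.64, adjusted p 0.0789). Pdha1, the catalytic subunit, did not pass (175 and 177 CPM in irradiated libraries, 177 and 191 CPM in unirradiated ones).

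**Figure D4:**
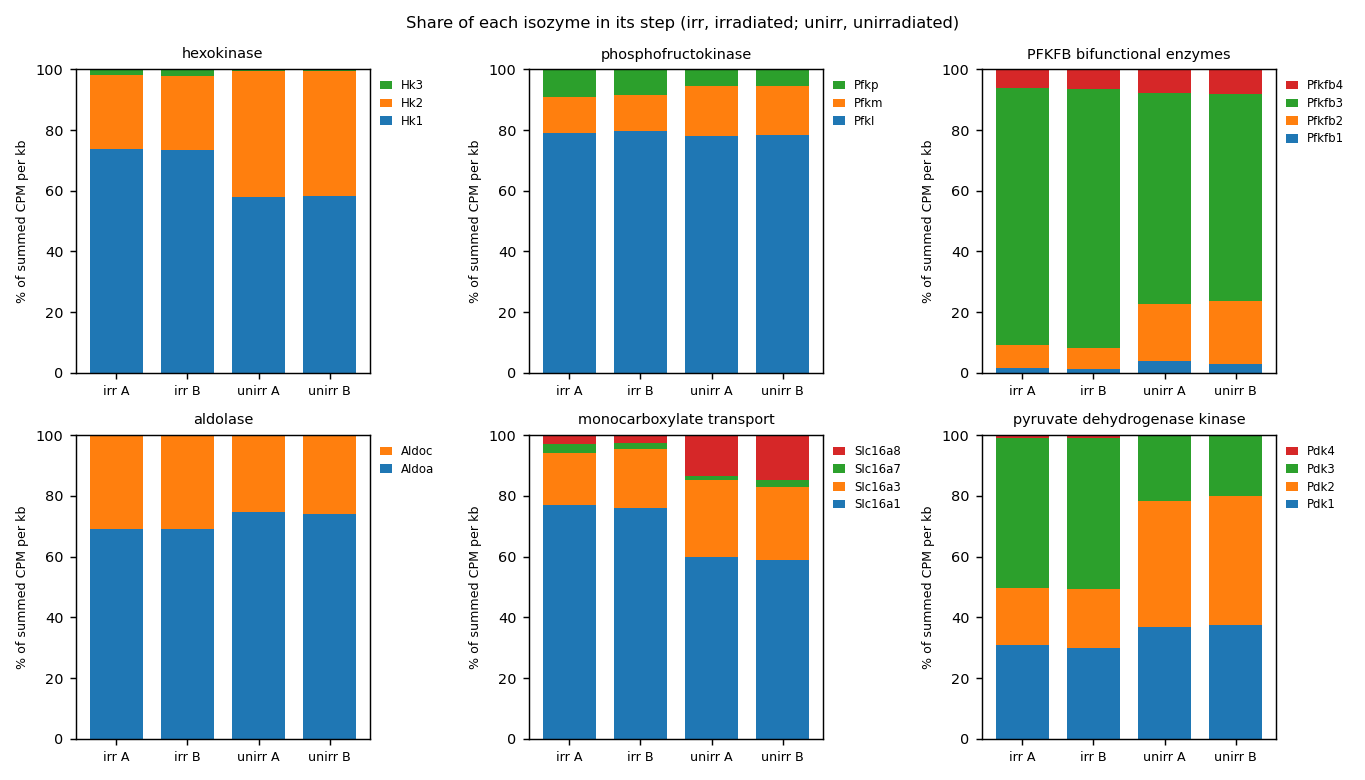
Share of each isozyme in the summed CPM per kilobase of its step, in each library, irradiated libraries first. Hk2, Pdk2 and Pdk1 take smaller, and Pfkfb3, Slc16a1 and Pdk3 larger, shares in irradiated than in unirradiated libraries.

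The 3 HIF subunits measured were all higher in irradiated libraries. Epas1, encoding HIF-2 alpha, had 110.2 and 101 CPM in irradiated libraries and 55.7 and 54 CPM in unirradiated ones (log2 fold change 0.94, SE 0.0635, edgeR adjusted p = 1.35e-20). Hif1a had 128 and 122 CPM in irradiated libraries and 84.6 and 73.3 CPM in unirradiated ones (0.65, SE 0.0595, edgeR adjusted p = 4.14e-15). Arnt, the shared beta subunit, had 68.3 and 71.5 CPM in irradiated libraries and 57 and 53.1 CPM in unirradiated ones (0.34, SE 0.0667), and was 0.02 and not called once the length and GC trend was taken out. HIF alpha protein is set mainly by its degradation, which RNA levels do not show. Of the prolyl hydroxylases that mark it for degradation, Egln3 was slightly lower (339.8 and 331 CPM in irradiated libraries, 396 and 374 CPM in unirradiated ones, log2 fold change -0.20) and Egln1 was not called (77 and 74.6 CPM in irradiated libraries, 75.2 and 73.3 CPM in unirradiated ones). The third, Egln2, taken from the list of other HIF regulators after its values were seen, was lower too (71.4 and 70.5 CPM in irradiated libraries, 81.4 and 77.8 CPM in unirradiated ones, log2 fold change -0.17, edgeR adjusted p = 0.0133).

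Of the 8 other HIF targets, 2 were higher (25%, against 33.9% of all tested genes), 4 lower (50%, against 32.5%) and 2 not called, with a median of -0.17, counts not far from that background. Ankrd37, an ankyrin-repeat protein (chromosome 8, 45996902 to 46005707), had 4.63 and 5.08 CPM in irradiated libraries and 12 and 11.5 CPM in unirradiated ones (log2 fold change -1.26, SE 0.168, edgeR adjusted p = 1.37e-09). A stretch of 26.4% of its exon bases overlaps Lrp2bp or Ufsp2, and those reads cannot be told apart. Mxi1, a MYC antagonist, had 47.4 and 49.1 CPM in irradiated libraries and 68.5 and 66.3 CPM in unirradiated ones (-0.48, SE 0.0676, edgeR adjusted p = 6.53e-09). Bnip3, a mitophagy receptor, had 25.3 and 28.2 CPM in irradiated libraries and 34.6 and 32.9 CPM in unirradiated ones (-0.33, SE 0.0886), with 22.3% of its exon bases antisense to Gm45507. The carbonic anhydrases parted: Car9 had 66.8 and 70 CPM in irradiated libraries and 81.8 and 83.6 CPM in unirradiated ones (-0.27), and Car12 had 227 and 226 CPM in irradiated libraries and 174 and 175 CPM in unirradiated ones (0.38). Both lost their call when the length and GC trend was removed, at -0.13 and 0.08. Ndrg1, a stress-responsive gene, had 364 and 363 CPM in irradiated libraries and 286 and 294 CPM in unirradiated ones (0.33, SE 0.0432). Adm, the vasodilator adrenomedullin, and Bnip3l, the relative of Bnip3, did not pass: Adm had 81.2 and 82.7 CPM in irradiated libraries and 82.1 and 87.9 CPM in unirradiated ones, which overlap, and Bnip3l had 128 CPM in both irradiated libraries and 136 and 131 CPM in unirradiated ones.

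Neighbouring pathway genes, 107 identifiers outside the glycolysis and hypoxia genes, gave 94 tested, with 36 higher (38.3%) and 33 lower (35.1%) and a median of -0.01. This lay near the 33.9% higher and 32.5% lower of all tested genes. The counts of the smaller lists that follow stand beside that same background, and lists of a few genes can stray from it easily. Of 33 other hypoxia-responsive genes 13 were higher and 14 lower, among them Ndufa4l2, a mitochondrial protein (-1.36), and Lox, lysyl oxidase (1.32), with 1.68 and 1.82 CPM in irradiated libraries and 4.12 and 5.1 CPM in unirradiated ones for Ndufa4l2. Of 8 pentose phosphate genes 4 were lower, led by transaldolase Taldo1 (229 and 236 CPM in irradiated libraries, 388 and 384 CPM in unirradiated ones, log2 fold change -0.73), and 2 were higher. Of 5 gluconeogenesis genes 3 were higher, and pyruvate carboxylase Pcx had 66.2 and 65.1 CPM in irradiated libraries and 33.8 and 39 CPM in unirradiated ones (0.86). Of 9 glycogen genes 4 were higher and 2 lower, with Pygl, liver glycogen phosphorylase, at -1.49. Of 11 other HIF regulators 5 were higher and 4 lower, with Arnt2 (1.15) the largest. Of 13 other pyruvate and monocarboxylate genes 5 were higher and 5 lower.

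**Figure D5:**
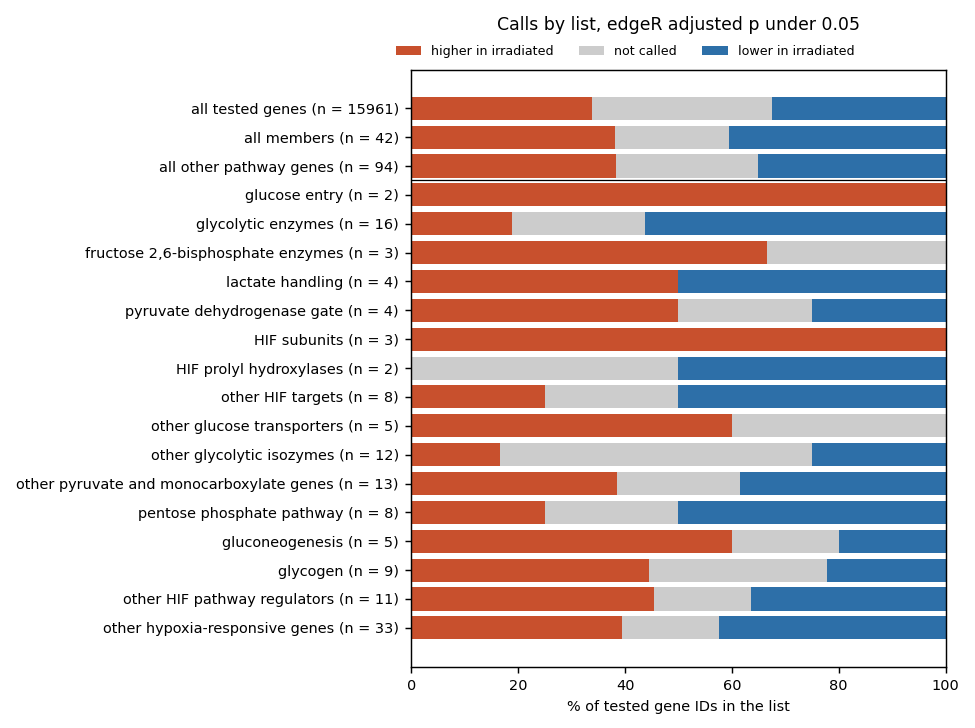
Percent of tested gene identifiers in each list that were higher, not called or lower in irradiated libraries at an edgeR adjusted p under 0.05. All tested genes are 33.9% higher and 32.5% lower, and the glycolytic enzymes are 18.8% higher and 56.2% lower.

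Gene length moved with the changes and its part in the single values was not tested beyond the alternative fit named above. The median log2 fold change of all tested genes in 4 equal groups by gene length, shortest to longest, was -0.38, -0.06, 0.10 and 0.23. With the trend removed, some called genes kept their direction but moved by more than 1.5 times: Pfkp to 0.31, Pkm to -0.33, Pdk1 to -0.84, Hif1a to 0.38, Egln3 to -0.13 and Ndrg1 to 0.09. Median length was 5313.5 bases for the 16 that were higher, 3310 for the 17 that were lower and 3734 for the 9 not called.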

How the data were processed

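The submitters' processing notes name STAR 2.5, HTSeq 0.6.1, DESeq2 and the mm10 genome, with settings and annotation release not given in the sources used here. Each deposited table lists raw counts per gene from the authors, with gene coordinates. Per the labels' protocols poly(A) RNA went into non-directional libraries, so reads of overlapping or antisense genes cannot be told apart. Counts were tested with edgeR 4.0.16 in R 4.3.3 (filterByExpr, TMM, quasi-likelihood F-test, all 4 libraries), adjusting p-values by Benjamini-Hochberg across the 15961 genes tested and calling those under 0.05. Standard errors were the size of the log2 fold change divided by the root of F. CPM is scaled by TMM, and levels between genes are CPM per kilobase of gene length. The functions were tested on simulated data. The glycolysis and hypoxia genes and the lists beside them were chosen with earlier results of these data known. Every member was described, and of each other list up to 3 called genes with at least 1 CPM, largest change first, were eligible to be named. Slc2a4, Slc2a8 and Egln2 were named outside that rule. Exact tests of single values in 2 against 2 libraries cannot go below a two-sided p of 0.333 and were not used. The groups' libraries differed by 29.7 and 28.1 times counting noise, and libraries within a group by 2.14 and 2.11 times, so none was counted as a repeat. Irradiated A and unirradiated A showed no shared deviation over genes (correlation -0.00305). This cannot show whether the letters A and B pair the samples, because a shared animal or preparation need not leave such a mark. The labels name no batch, and any batch aligned with the groups and irradiation cannot be told apart. DESeq2 1.42.0 was an alternative, as were RLE and upper-quartile scaling, other filters, a replicate block, a 0.1 threshold, a test against 1.5-fold, omission of single libraries and removal of a length and GC trend. The legacy dispersion of edgeR, and isozyme ratios with that trend removed, were added after seeing the data.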

Additional observations from a re-analysis of the deposited data

How the results depend on the processing

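Tested against 1.5-fold, 2033 genes were higher and 1753 lower, with 8 and 3 of the glycolysis and hypoxia genes and 12 and 9 of the other pathway genes. The median of the glycolysis and hypoxia genes was 0 with no filter on low counts. Removing the length and GC trend reversed Pfkl (-0.21, adjusted p 9.24e-07), Pgam1 (0.12, 0.0162), Ldhb (0.11, 0.127) and Adm (0.20, 0.00201). It also newly called Hk1 (-0.32), Pfkfb2 (-0.40), Pdha1 (-0.18), Bnip3l (-0.21) and the upstream Aldoa model (1.03). The cause was not tested. Ldhb also lost its call with DESeq2 (adjusted p 0.124) and with no filter on low counts (0.281), and Aldoa with no filter (0.572). The replicate block gave 16 higher and 17 lower genes, as without it, and changed no call of the genes counted there. Leaving out each library gave 15 to 16 higher and 15 to 16 lower genes, with a lone library assumed to vary like the other group. Slc2a3 and Pdk4 rest on few counts, and depth limits them. Scaling by TPM would move the median of all genes by 0.51 on the log2 scale and was not used between groups.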
